A study of Mus musculus with 8 samples.

Results

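The 10 genes described here encode subunits of the transcription factor NF-kB and products that NF-kB induces, among them its own inhibitors. They were chosen by symbol, with earlier results of these data known: Nfkb1, Nfkb2, Relb, Nfkbia, Tnfaip2, Tnfaip3, Traf1, Birc3, Bcl3 and Icam1. Their counts beside shares of all genes, and those of the pathway lists below, are therefore descriptions. Each of the 10 matched 1 row of a table of 29079 genes, and all 10 were among the 14923 genes with enough reads to be tested. The cells were MC38, a mouse colon adenocarcinoma line. The label WT stands for MC38 carrying a CRISPR control (CRISPR-Ctrl) and Piezo2-KO, called KO here, for MC38 edited with a single guide RNA (Piezo2-gRNA1) against Piezo2, a mechanically gated ion channel. Each line was measured without irradiation (0 Gy) and 60 hours after 1 X-ray dose of 30 Gy, with 2 mRNA sequencing libraries in each of the 4 groups. The sources used here do not say whether the KO line is 1 clone or whether replicate libraries were grown apart, so p-values measure a spread between libraries that may be technical. The series title concerns Piezo2 in tumour cells, resistance to radiation and CD8 T cells.

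NF-kB is a family of dimers built from the products of Rela, Relb, Rel, Nfkb1 and Nfkb2. In resting cells the dimers are held back by inhibitors of the IkB family. Signals from cytokine receptors, pattern recognition receptors or DNA damage activate the IkB kinase complex, the inhibitor is degraded, and the dimers enter the nucleus. A slower branch, driven by the kinase NIK (Map3k14), processes the Nfkb2 precursor into a subunit that pairs with RelB. Many target genes encode brakes on the pathway, so their mRNA is widely used as a readout of its activity. mRNA levels do not show processing, degradation or nuclear entry of these proteins.

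Promoter letters around the sites that NF-kB dimers can bind are shown first, since they are what several of these genes share by sequence. RefSeq promoter windows of the GRCm38.p6 build were matched for 8 of the 10 genes, in 11 windows because some genes have several start sites. Nfkb1 and Relb had no entry. The 250 bases before each start were searched on both strands for the 10-letter kappaB consensus. It occurred in 6 of the 11 windows, from 4 genes, against 7.25% of all 32841 windows. Of these 6 windows 3 belong to start sites of Nfkb2, and the matches in 2 of those are not printed. The stretches run 5′ to 3′ on the gene's strand, capitals mark the match, and positions are counted back from the base before the start, which is -1.
Nfkb2, chr19:46304689-46304717, plus strand, overlapping matches from -39 to -29: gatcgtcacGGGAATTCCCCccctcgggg
Nfkb2, chr19:46304716-46304736, plus strand, match from -11 to -2: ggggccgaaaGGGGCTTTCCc
Nfkbia, chr12:55492648-55492701, minus strand, match from -29 to -20: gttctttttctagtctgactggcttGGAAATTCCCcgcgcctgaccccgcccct
Tnfaip2, chr12:111442627-111442656, plus strand, match from -24 to -15: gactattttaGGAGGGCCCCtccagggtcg
Tnfaip3, chr10:19015501-19015547, minus strand, match from -125 to -116: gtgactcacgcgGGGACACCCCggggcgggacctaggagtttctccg
Tnfaip3, chr10:19015411-19015447, minus strand, match from -12 to -3: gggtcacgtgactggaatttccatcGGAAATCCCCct
The Nfkb2 and Tnfaip2 stretches are short because other annotated transcripts of those genes begin upstream and cover them with exons. The window of Icam1 held no kappaB match. It held a GAS site, the letters TTCNNNGAA bound by STAT dimers, and the stretch is given because Icam1 had the largest range of the 10.
Icam1, chr9:21015873-21015931, plus strand, GAS match from -42 to -34: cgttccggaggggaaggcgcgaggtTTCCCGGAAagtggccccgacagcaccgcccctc
GAS sites occurred in 2 of the 8 genes, Nfkb2 and Icam1, and in 7.02% of all windows. The ISRE core, bound by interferon-activated factors, occurred in none of the 8 genes and in 2.98% of all windows. A match is a description of letters, and its absence says only that the letters are not in the window.

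The libraries held between 10971004 and 19887180 counts. Levels are CPM, that is counts divided by a library's scaled total in units of 1 M reads. Piezo2 had 0 and 0 reads in WT at 0 Gy, 3 and 9 in WT at 30 Gy, 0 and 1 in KO at 0 Gy and 7 and 12 in KO at 30 Gy, so its mRNA does not check the knockout. Of 9 epithelial markers 6 were in the table. Their summed level was 41.0 to 41.6 CPM in WT at 0 Gy, 76.4 to 79.4 in WT at 30 Gy, 48.5 to 51.6 in KO at 0 Gy and 79.4 to 80.7 in KO at 30 Gy. Nearly all of it was Cdh1, while Krt18 had at most 2 reads, Vil1 at most 9 and Krt8 at most 20 in any library. Krt19 had at most 28 reads, at 1.46 and 0.934 CPM in WT at 0 Gy against 0.092 and 0.103 in KO at 0 Gy, so the keratins usual in colon epithelium were low throughout. The 4 mesenchymal markers summed to 4296 to 4698 CPM in WT at 0 Gy and 4586 to 5225 in WT at 30 Gy. In KO they summed to 3236 to 3536 at 0 Gy and 3033 to 3357 at 30 Gy. Of the 4, 3 were called lower in KO at 0 Gy, beside 9.49% of all tested genes, and 1 at 30 Gy, beside 11.4%. After irradiation 2 were called higher in WT and 3 in KO, beside 20.4% and 21.1% of all tested genes. Vim had at least 33786 reads in every library.

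In the control line, 6 of the 10 genes rose after irradiation and 1 fell, beside 20.4% and 18.4% of all tested genes. Icam1, Tnfaip3, Birc3, Nfkbia, Relb and Nfkb2 rose, by 6.96-fold down to 1.34-fold, and Nfkb1 fell to 0.849 of its level. Tnfaip2, Traf1 and Bcl3 did not pass the test. In the KO line 7 rose, the same 6 and Traf1, and none fell, beside 21.1% and 18.6% of all genes. Comparing the lines, 6 genes were lower in KO without irradiation, beside 9.49% of all genes, and 7 after it, beside 11.4%. None was higher at either dose, beside 10.4% and 13.3%. The differences were widest for Tnfaip2, at 0.402 of the WT level without irradiation, and Icam1, at 0.302 of the WT level after it.

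**Figure D1:**
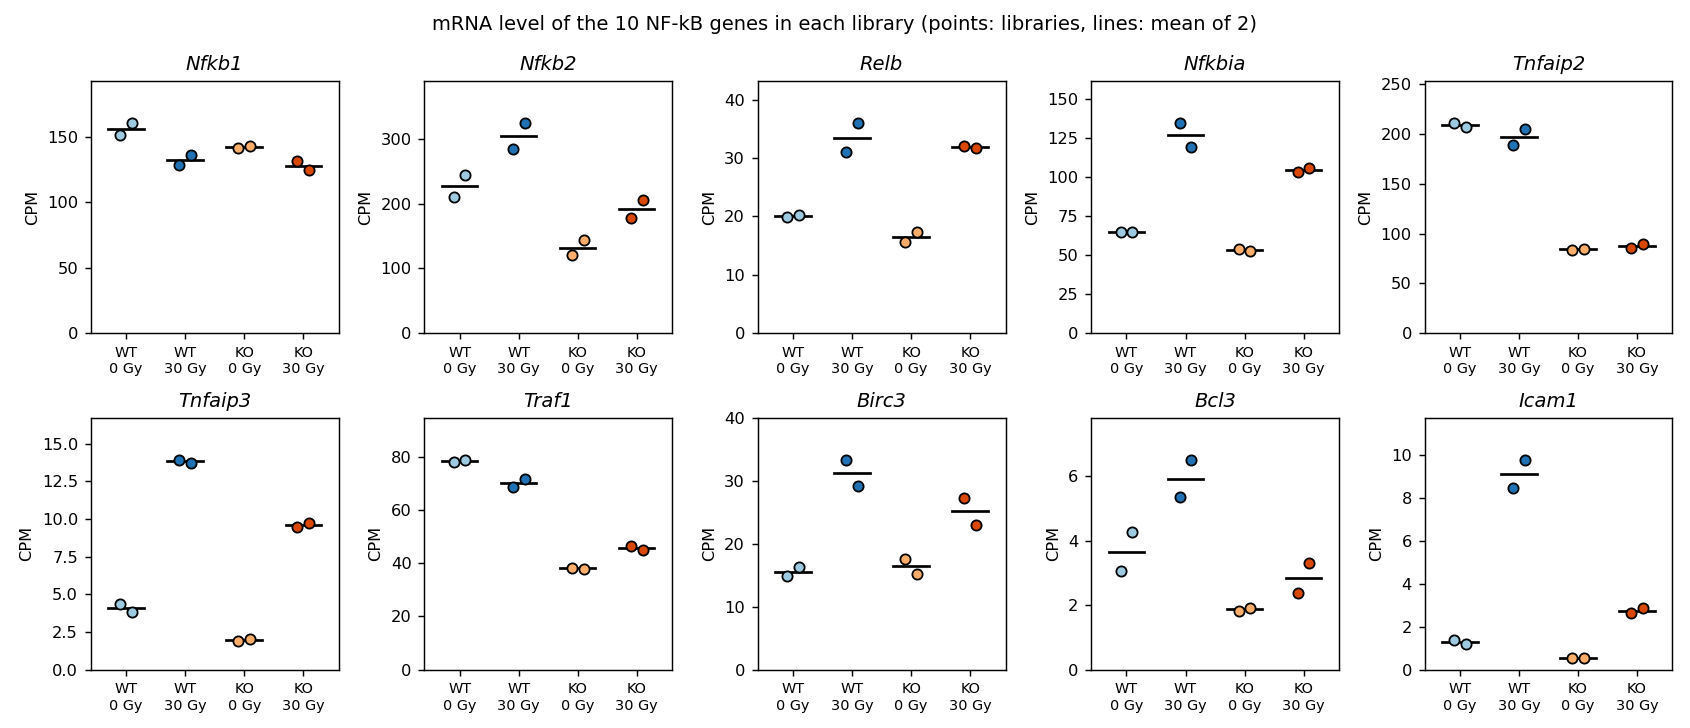
Each panel shows 1 gene, with CPM on the vertical axis from 0 and the 4 groups on the horizontal axis; points are the 8 libraries and lines the mean of the 2 libraries of a group. Icam1 reached 8.44 and 9.76 CPM in WT at 30 Gy but 2.63 and 2.85 in KO at 30 Gy, and Tnfaip2 separated the lines at both doses.

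Among the subunits, Nfkb2 (ENSMUSG00000025225, mm10 chromosome 19, 46304320 to 46312385, plus strand) encodes the precursor of the slower branch. It stood at 211 and 244 CPM in WT at 0 Gy, 285 and 325 in WT at 30 Gy, 121 and 143 in KO at 0 Gy, and 178 and 205 in KO at 30 Gy. Irradiated libraries lay above non-irradiated ones in each line, and both KO groups lay below the WT group of the same dose. Means were 227 ± 23.5 and 305 ± 28.1 CPM in WT and 132 ± 15.7 and 192 ± 18.9 in KO (SD, n = 2 each), so KO at 30 Gy stayed below WT at 0 Gy. The irradiation effect was 0.42 ± 0.13 on the log2 scale in WT (SE; edgeR adjusted p = 0.0303) and 0.53 ± 0.13 in KO (edgeR adjusted p = 0.0125). KO differed from WT by -0.78 ± 0.13 without irradiation (edgeR adjusted p = 0.0052) and by -0.67 ± 0.13 after it (edgeR adjusted p = 0.00735). Psd, a protein-coding gene on the other strand, shares 299 exonic bases with Nfkb2, and the strand setting of the counting is not given, so reads of the pair cannot be told apart there. In CPM of the unscaled totals Psd stood at 39.0 and 40.2 in WT at 0 Gy, 75.8 and 78.7 in WT at 30 Gy, 24.9 and 23.7 in KO at 0 Gy and 49.4 and 57.1 in KO at 30 Gy. Its groups thus had the same order as those of Nfkb2 except that KO at 30 Gy exceeded WT at 0 Gy, and its part in the Nfkb2 values was not tested.

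Relb (ENSMUSG00000002983, chromosome 7, 19606217 to 19629438, minus strand) encodes the partner of processed Nfkb2. Its levels were 19.97 and 20.22 CPM in WT at 0 Gy, 31.0 and 36.0 in WT at 30 Gy, 15.7 and 17.3 in KO at 0 Gy, and 32.1 and 31.8 in KO at 30 Gy. Relb rose by 0.74 ± 0.11 on the log2 scale in WT (edgeR adjusted p = 0.00142) and by 0.95 ± 0.11 in KO (edgeR adjusted p = 0.000452). After irradiation the lines overlapped, with a difference of -0.07 (95% interval -0.31 to 0.17, edgeR adjusted p = 0.67). Without irradiation both KO libraries were lower, by a difference of -0.28 ± 0.11 that did not pass (edgeR adjusted p = 0.115). With the replicate number as a block this difference passed (edgeR adjusted p = 0.0305, range over all alternatives 0.0305 to 0.348).

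Nfkb1 (ENSMUSG00000028163, chromosome 3, 135584655 to 135691547, minus strand) encodes the precursor of the subunit that pairs with RelA in the classical dimer. It was the member with the narrowest range, 151 and 160 CPM in WT at 0 Gy, 128 and 136 in WT at 30 Gy, 141 and 143 in KO at 0 Gy, and 131 and 124 in KO at 30 Gy. Its highest group mean was 1.22 times its lowest. Unlike the other subunits, it was lower in WT at 30 Gy, by -0.24 ± 0.07 (edgeR adjusted p = 0.0347), a call that was lost in 9 of 14 alternatives (adjusted p up to 0.162). The change in KO was -0.15 (edgeR adjusted p = 0.137), which passed with the replicate block (edgeR adjusted p = 0.00671, range over alternatives 0.00671 to 0.409). The lines differed by -0.13 without irradiation (edgeR adjusted p = 0.24, with the block 0.0191, range 0.0191 to 0.637) and by -0.05 after it (edgeR adjusted p = 0.668), where their libraries overlapped.

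Shares of the 5 subunit mRNAs, each as CPM per kilobase of exon, describe how the family was made up. Nfkb2 took 46.92 to 49.51% in WT at 0 Gy, 52.45 to 52.6% in WT at 30 Gy, 35.33 to 37.38% in KO at 0 Gy and 40.31 to 42.96% in KO at 30 Gy. Rela took 30.7 to 32.11%, 28.94 to 29.91%, 40.76 to 40.88% and 36.91 to 37.01% in the same order. Per kilobase, Rela was thus the largest share in non-irradiated KO libraries, and in the other 3 groups Nfkb2 was. In CPM, not scaled for length, the KO means at 0 Gy were 142 for Nfkb1, 132 for Nfkb2 and 99.3 for Rela. Relb took 4.84 to 8.56% and Rel 2.22 to 2.92% over all libraries. The share of Nfkb1, 8.39 to 15.68%, depends on its union exon length of 12061 bases. Rela itself did not pass edgeR's threshold in any of the 5 comparisons, with levels of 93.6 to 124 CPM over the 8 libraries.

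Nfkbia (ENSMUSG00000021025, chromosome 12, 55489410 to 55492647, minus strand) encodes IkB alpha, the inhibitor that retains NF-kB in the cytoplasm and is resynthesised when NF-kB is active. It stood at 64.4 and 64.7 CPM in WT at 0 Gy, 134 and 119 in WT at 30 Gy, 53.7 and 52.6 in KO at 0 Gy, and 103 and 106 in KO at 30 Gy. The irradiation effect had the same size in the lines, 0.97 ± 0.08 in WT (1.96-fold, edgeR adjusted p = 0.000121) and 0.97 ± 0.08 in KO (1.96-fold, edgeR adjusted p = 9.64e-05). The difference between these effects had a 95% interval from -0.26 to 0.26. All KO libraries lay below the WT libraries of the same dose. That difference was -0.28 ± 0.08 at either dose (edgeR adjusted p = 0.0473 and 0.0366), but it was lost in 10 of 14 alternatives without irradiation (highest adjusted p 0.164) and in 9 of 14 after it (highest 0.249).

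Tnfaip3 (ENSMUSG00000019850, chromosome 10, 19000910 to 19015657, minus strand) encodes a ubiquitin-editing enzyme that ends NF-kB signalling upstream of the kinase. Reads were few without irradiation, 72 and 57 in WT and 21 and 40 in KO, against 193 and 240 in WT at 30 Gy and 144 and 171 in KO at 30 Gy. The matching CPM were 4.39 and 3.80, 1.92 and 2.06, 13.9 and 13.7, and 9.46 and 9.76. The 4 groups did not overlap. Tnfaip3 rose 3.37-fold in WT (log2 1.75 ± 0.16, edgeR adjusted p = 0.00018) and 4.80-fold in KO (log2 2.26 ± 0.17, edgeR adjusted p = 5.87e-05). The rise in KO exceeded that in WT by 0.51 on the log2 scale, which did not pass (95% interval -0.02 to 1.04, edgeR adjusted p = 0.425). In KO it was at 0.488 of the WT level without irradiation (log2 -1.03 ± 0.17, edgeR adjusted p = 0.00602; 0.0655 with only the groups compared in the fit, the highest of 14 alternatives). After irradiation it was at 0.696 (log2 -0.52 ± 0.15, edgeR adjusted p = 0.0396), a call lost in 7 of 14 alternatives (highest adjusted p 0.173, with DESeq2).

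Bcl3 (ENSMUSG00000053175, chromosome 7, 19808462 to 19822770, minus strand) encodes a nuclear member of the IkB family that acts as a co-regulator of NF-kB dimers. It had between 20 and 114 reads in a library. Levels were 3.05 and 4.27 CPM in WT at 0 Gy, 5.34 and 6.51 in WT at 30 Gy, 1.83 and 1.90 in KO at 0 Gy, and 2.37 and 3.31 in KO at 30 Gy. Irradiated libraries lay above non-irradiated ones in each line without passing the test, at 0.70 ± 0.27 in WT (edgeR adjusted p = 0.0778) and 0.60 ± 0.29 in KO (edgeR adjusted p = 0.14). The block moved the WT value to an adjusted p of 0.00658 (range over alternatives 0.00658 to 0.318). KO was at 0.480 of WT after irradiation (log2 -1.06 ± 0.28, edgeR adjusted p = 0.0273), a call lost in 5 of 14 alternatives (highest adjusted p 0.149). Without irradiation the difference was -0.96 ± 0.29 (edgeR adjusted p = 0.0532, with the block 0.00261, range 0.00261 to 0.227).

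Traf1 (ENSMUSG00000026875, chromosome 2, 34941750 to 34961772, minus strand) encodes an adaptor of TNF receptor family signalling. Its levels were 77.9 and 78.8 CPM in WT at 0 Gy, 68.6 and 71.5 in WT at 30 Gy, 38.2 and 37.9 in KO at 0 Gy, and 46.4 and 45.0 in KO at 30 Gy. All 4 KO libraries lay below all 4 WT libraries. KO was at 0.485 of WT without irradiation (log2 -1.04 ± 0.07, edgeR adjusted p = 0.000163) and at 0.652 after it (log2 -0.62 ± 0.07, edgeR adjusted p = 0.000901). Its irradiation effects had opposite signs. It was lower in WT at 30 Gy by -0.16 ± 0.07, which did not pass (edgeR adjusted p = 0.111, with the block 0.022, range over alternatives 0.022 to 0.379). It rose in KO by 0.26 ± 0.07 (edgeR adjusted p = 0.0247), a call lost in 7 of 14 alternatives (highest adjusted p 0.177). The difference between these effects was 0.43 ± 0.10 (95% interval 0.19 to 0.67, unadjusted p = 0.00359), which did not pass over all genes (edgeR adjusted p = 0.11) and passed with the block (edgeR adjusted p = 0.000821, range over 13 alternatives 0.000821 to 0.388).

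Birc3 (ENSMUSG00000032000, chromosome 9, 7848699 to 7873186, minus strand) encodes an inhibitor-of-apoptosis ubiquitin ligase at TNF receptors. It stood at 14.9 and 16.3 CPM in WT at 0 Gy, 33.4 and 29.2 in WT at 30 Gy, 17.7 and 15.3 in KO at 0 Gy, and 27.3 and 23.1 in KO at 30 Gy. Non-irradiated lines overlapped, with a difference of 0.08 (95% interval -0.25 to 0.40). Birc3 rose 2.01-fold in WT (log2 1.01 ± 0.14, edgeR adjusted p = 0.00106) and 1.53-fold in KO (log2 0.62 ± 0.14, edgeR adjusted p = 0.00926). The KO call was lost without non-irradiated KO replicate 2 (adjusted p = 0.0638) or irradiated KO replicate 1 (adjusted p = 0.0913, the highest over 14 alternatives). After irradiation KO was lower by -0.31 ± 0.13, which passed only with the block (edgeR adjusted p = 0.129, with the block 0.00708, range 0.00708 to 0.46). This was the 1 member whose lowest mean lay in WT at 0 Gy.

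Icam1 (ENSMUSG00000037405, chromosome 9, 21015985 to 21028817, plus strand) encodes an adhesion molecule that binds integrins on leukocytes. Its reads were 23 and 18 in WT at 0 Gy, 117 and 171 in WT at 30 Gy, 6 and 11 in KO at 0 Gy, and 40 and 50 in KO at 30 Gy. The matching CPM were 1.40 and 1.20, 8.44 and 9.76, 0.550 and 0.565, and 2.63 and 2.85. The 4 groups did not overlap, and the highest mean was 16.3 times the lowest. The rise after irradiation was 6.96-fold in WT (log2 2.80 ± 0.24, edgeR adjusted p = 0.000129) and 4.85-fold in KO (log2 2.28 ± 0.26, edgeR adjusted p = 0.000488). Their difference was -0.52 on the log2 scale (95% interval -1.36 to 0.32, edgeR adjusted p = 0.729). KO was at 0.302 of WT after irradiation (log2 -1.73 ± 0.22, edgeR adjusted p = 0.00125). Without irradiation it was at 0.432 (log2 -1.21 ± 0.28, edgeR adjusted p = 0.0203), a call that rests on 17 reads in KO and 41 in WT and was lost in 6 of 14 alternatives (highest adjusted p 0.156).

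Tnfaip2 (ENSMUSG00000021281, chromosome 12, 111442469 to 111455018, plus strand) is a TNF-induced gene whose product is linked to membrane protrusions. Levels were 211 and 208 CPM in WT at 0 Gy, 189 and 205 in WT at 30 Gy, 83.7 and 84.6 in KO at 0 Gy, and 85.6 and 89.7 in KO at 30 Gy. KO was at 0.402 of WT without irradiation (log2 -1.31 ± 0.07, edgeR adjusted p = 8.08e-05) and at 0.444 after it (log2 -1.17 ± 0.07, edgeR adjusted p = 4.51e-05). Irradiation effects were -0.08 in WT (95% interval -0.25 to 0.08, edgeR adjusted p = 0.388) and 0.06 in KO (95% interval -0.11 to 0.23, edgeR adjusted p = 0.577).

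**Figure D2:**
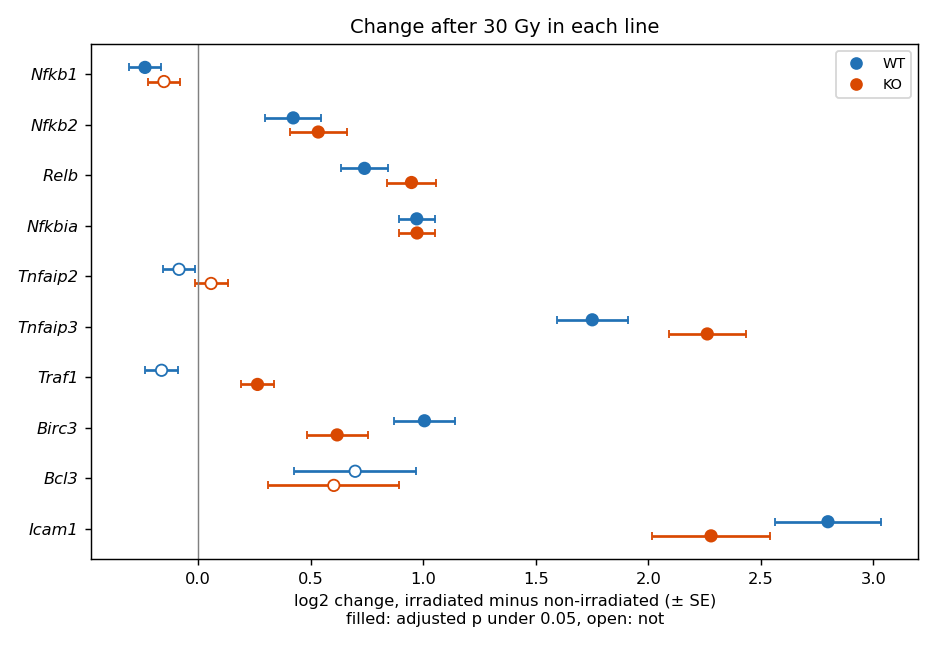
Points are the log2 change of each of the 10 genes after 30 Gy, bars the standard error, with WT in blue and KO in orange; filled points passed an adjusted p of 0.05. Icam1 (2.80 and 2.28) and Tnfaip3 (1.75 and 2.26) lie farthest to the right, and Traf1 lies on either side of 0 (-0.16 and 0.26).

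For the question of what irradiation did in each line, the counts of the 10 genes read as follows. The test was edgeR's quasi-likelihood F test, two-sided, fitted on all genes and libraries, with p-values adjusted by the Benjamini-Hochberg method over the 14923 genes and called under 0.05. In WT, 6 of 10 were higher, against 20.4% of all tested genes, and 1 was lower, against 18.4%. Their median log2 change was 0.72, beside 0.03 over all genes. In KO, 7 of 10 were higher, against 21.1% of all genes, and 0 were lower, against 18.6%. The count lower was 0 also with DESeq2 and at an unadjusted edgeR p under 0.05. That unadjusted limit was passed by 48.4% of all genes, counting both directions. The median of the 10 genes was 0.61, beside 0.02 over all genes. All 10 differed in the same direction in replicate numbers 1 and 2 in each line, Tnfaip2 in WT by only -0.16 and -0.015. The share of all genes that did so was not computed. Relb, Nfkbia, Tnfaip3 and Icam1 were called in every alternative in each line, and Birc3 in WT only. The Nfkb2 call was lost in WT without non-irradiated replicate 1 or irradiated replicate 2 and in KO without the libraries of the same numbers. The highest adjusted p over its alternatives was 0.162 in WT and 0.0785 in KO. DESeq2 called 6 in each line, and its share of all genes is not given here. With the block 7 were higher and 2 lower in WT, and 7 higher and 1 lower in KO. Of all 14923 genes 4569 were then higher and 4465 lower in WT, and 4569 and 4417 in KO.

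Comparing the lines at each dose asks what editing Piezo2 went with. Without irradiation 6 of 10 were lower in KO, against 9.49% of all tested genes, and 0 were higher, against 10.4%. The median was -0.87, beside -0.01 over all genes. After irradiation 7 of 10 were lower, against 11.4% of all genes, and 0 were higher, against 13.3%, with a median of -0.57 beside -0.01. At an unadjusted edgeR p under 0.05, 8 were lower and 0 higher at either dose. That limit was passed by 33.8% of all tested genes without and 36.9% after irradiation, counting both directions. DESeq2 called 4 of the 10 lower and 0 higher at either dose, and its share of all genes is not given here. With the block 9 of the 10 were lower without irradiation and 8 after it. Of all 14923 genes 3504 and 3755 were then lower. Nfkb2, Tnfaip2 and Traf1 were called in every alternative at both doses, and Icam1 in every alternative after irradiation. The fit of only the groups compared called 3 without irradiation, and its share of all genes is not given here. After irradiation the count was 4 without irradiated WT replicate 1, irradiated KO replicate 1 or irradiated KO replicate 2. In each fit leaving out 1 library, fewer of all genes were also called lower in KO than in the main fit. Replicate numbers 1 and 2 gave the same direction for 9 of 10 genes without irradiation, all but Birc3. After irradiation they did so for 8 of 10, all but Nfkb1 and Relb. The share of all genes that did so was not computed at either dose. The comparisons of the lines share their groups with those of irradiation. The KO line stands for 1 guide RNA, so an effect of losing Piezo2 and any other difference between these lines cannot be told apart, and fewer cells of a kind cannot be told apart from less RNA per cell.

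**Figure D3:**
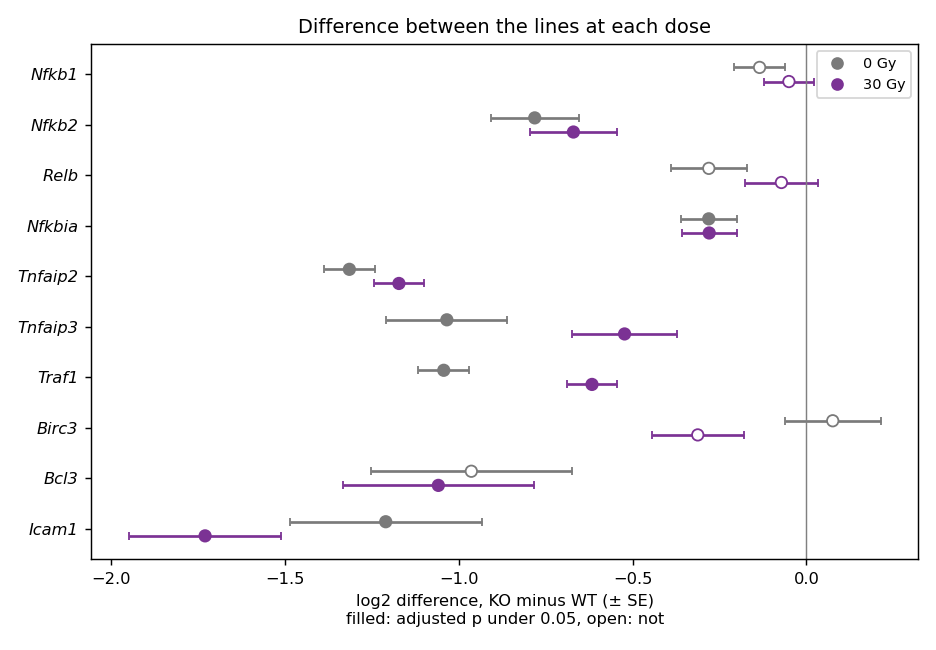
Points are the log2 difference between KO and WT for each of the 10 genes, bars the standard error, in grey without irradiation and in purple after 30 Gy; filled points passed an adjusted p of 0.05. All points but that of non-irradiated Birc3 (0.08) lie left of 0, down to -1.73 for irradiated Icam1.

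Whether irradiation acted differently in the lines was tested as an interaction, the effect in KO minus that in WT. It called 0 of the 10 genes, against 1.37% of all tested genes higher and 0.57% lower. At an unadjusted p under 0.05 it gave 1, Traf1, beside 12.4% of all genes in either direction, and DESeq2 gave 0. With the replicate block it called 1 higher, Traf1 (edgeR adjusted p = 0.000821). Of all 14923 genes 1216 were then higher and 1276 lower. The intervals that follow are from the fit without the block. The widest intervals, those of Bcl3 (-1.03 to 0.84) and Icam1 (-1.36 to 0.32), leave room for differences of over 1 log2 unit. The narrowest, those of Traf1, Nfkb1 (-0.15 to 0.32) and Tnfaip2 (-0.09 to 0.38), do not.

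Per length, the order of the mRNAs in non-irradiated WT was Nfkb2 (49.6 ± 5.12 CPM per kilobase of exon, SD, n = 2), Tnfaip2 (42.004 ± 0.507), Nfkbia (40.1 ± 0.162), Nfkb1 (12.9 ± 0.527), Traf1 (8.88 ± 0.075), Relb (5.17 ± 0.045), Birc3 (3.11 ± 0.201), Bcl3 (1.48 ± 0.350), Tnfaip3 (0.567 ± 0.057) and Icam1 (0.298 ± 0.032). In KO at 30 Gy, Nfkbia led with 64.8 ± 1.35, followed by Nfkb2 at 41.8 ± 4.13 and Tnfaip2 at 17.6 ± 0.576. In WT at 30 Gy the leading pair was Nfkbia at 78.7 ± 6.80 and Nfkb2 at 66.5 ± 6.13, and in KO at 0 Gy it was Nfkbia at 33.0 ± 0.464 and Nfkb2 at 28.8 ± 3.42. Icam1 was the least abundant in WT at 0 Gy and in both KO groups, and Tnfaip3, at 1.91 ± 0.022, was in WT at 30 Gy. Highest group means lay in WT at 30 Gy for 7 genes and in WT at 0 Gy for Nfkb1, Tnfaip2 and Traf1. Lowest means lay in KO at 0 Gy for 8, in KO at 30 Gy for Nfkb1 and in WT at 0 Gy for Birc3. The shares of all genes with their highest or lowest mean in these groups were not computed.

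**Figure D4:**
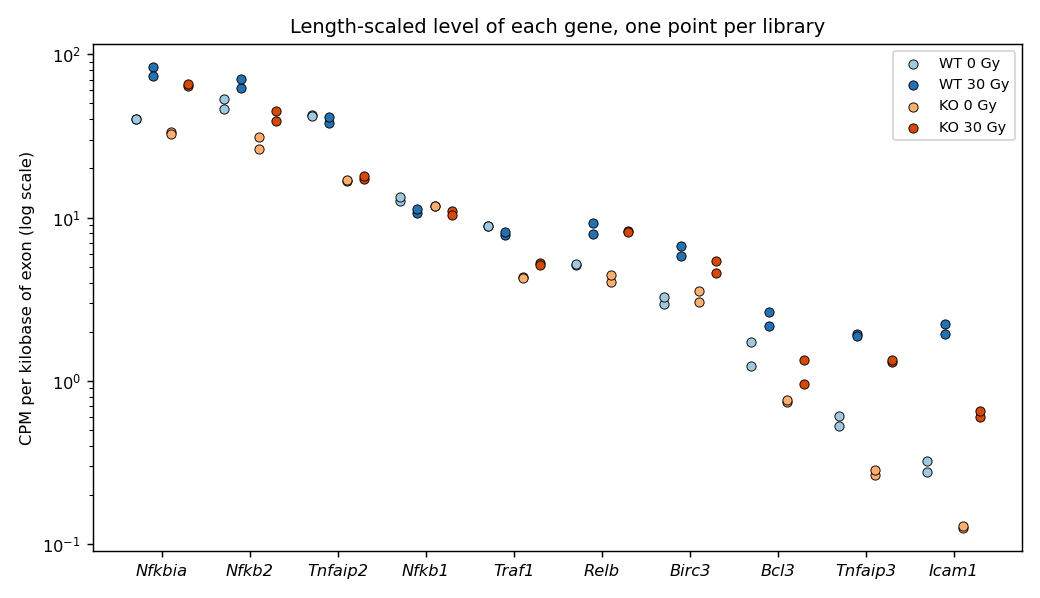
The vertical axis is CPM per kilobase of exon on a log scale, and each point is 1 library, coloured by group, for each of the 10 genes on the horizontal axis. Levels span from about the 0.128 of Icam1 in KO at 0 Gy to the 78.7 of Nfkbia in WT at 30 Gy.

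Over the 8 libraries, Icam1 followed the mean of the other 9 genes most closely (Pearson r = 0.955), then Nfkb2 (0.928), Tnfaip3 (0.906), Bcl3 (0.899), Nfkbia (0.888) and Relb (0.851). Birc3 (0.760), Traf1 (0.615) and Tnfaip2 (0.548) followed it less, and Nfkb1 ran the other way (-0.401). These values are descriptions over libraries that share their groups, and carry no p. The mean of the 10 genes' centred log2 CPM was -0.08 and -0.03 in WT at 0 Gy, 0.68 and 0.75 in WT at 30 Gy, -0.75 and -0.71 in KO at 0 Gy, and 0.05 and 0.10 in KO at 30 Gy. Among 1797 other genes averaging 5 CPM or more, with an SD of log2 CPM of at least 0.5, the 5 whose pattern was most like this mean were C1ra (r = 0.998), Fn1 (0.996), A4galt (0.994), Plxna3 (0.994) and Igfbp7 (0.993). C1ra, a protease subunit gene of the first complement component, stood at 7.19 and 7.27 CPM in WT at 0 Gy, 19.8 and 19.7 in WT at 30 Gy, 2.56 and 2.72 in KO at 0 Gy, and 8.67 and 8.96 in KO at 30 Gy. The fibronectin gene Fn1 stood at 154 and 178, 1192 and 1421, 41.8 and 46.0, and 240 and 264 CPM in the same order.

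Of 105 further genes of the pathway, listed by role, 100 were in the table and 82 were tested. In WT 29 rose (35.4%, beside 20.4% of all tested genes) and 12 fell (14.6%, beside 18.4%). In KO 38 rose (46.3%, beside 21.1%) and 9 fell (10.98%, beside 18.6%). KO against WT, 9 were higher without irradiation (10.98%, beside 10.4%) and 19 lower (23.2%, beside 9.49%). After irradiation 20 were higher (24.4%, beside 13.3%) and 17 lower (20.7%, beside 11.4%), so the calls fell on both sides.

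**Figure D5:**
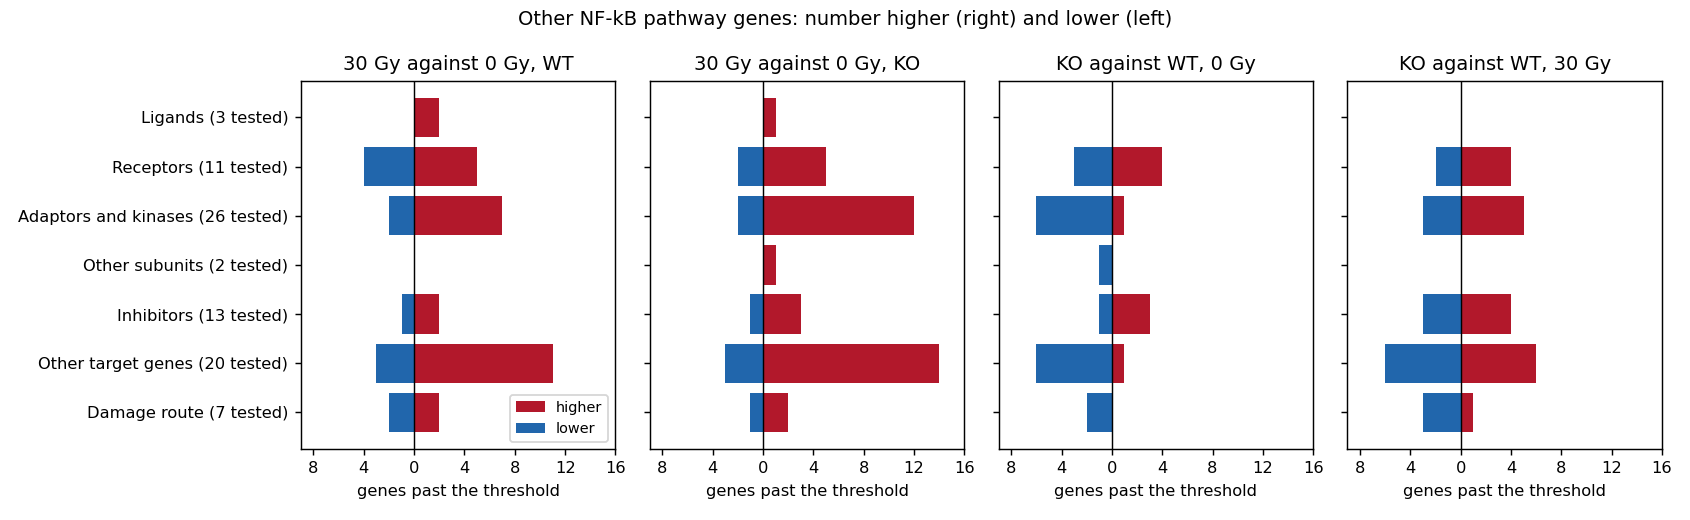
Bars give, for each of 7 lists of other pathway genes, the number called higher (red, right) and lower (blue, left) in each of the 4 comparisons. Among 20 tested other targets 11 rose and 3 fell in WT and 14 rose and 3 fell in KO. The lines differed by 1 higher and 6 lower without irradiation and 6 and 6 after it. Over all tested genes 20.4% rose and 18.4% fell in WT, and 21.1% and 18.6% in KO. Between the lines 10.4% were higher and 9.49% lower without irradiation, and 13.3% and 11.4% after it.

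Ligands were scarce. Only 3 of the 10 present were tested, and Tnf had at most 0.328 CPM, Il1a at most 0.361, Il1b at most 0.197 and Ltb at most 0.216 in any library. Il18, an inflammasome-processed cytokine, rose by 1.28 ± 0.37 in WT and 2.91 ± 0.40 in KO (edgeR adjusted p = 0.0286 and 0.00114). Tnfsf13b, a B cell survival factor, rose in WT from 5 and 1 reads to 18 and 18 (log2 2.57 ± 0.69, edgeR adjusted p = 0.0209). Line differences of these 3 ligands did not pass edgeR's threshold at either dose.

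Receptors moved in both directions, with 5 of 11 higher and 4 lower in WT and 5 higher and 2 lower in KO. The shares over all tested genes were 20.4% higher and 18.4% lower in WT and 21.1% and 18.6% in KO. Tlr2, a sensor of bacterial lipoproteins, rose by 2.24 ± 0.20 in WT and 2.95 ± 0.18 in KO. Tlr3, a sensor of double-stranded RNA, rose by 1.25 ± 0.15 in WT and 3.73 ± 0.15 in KO. The interleukin-1 receptor gene Il1r1 stood at 3.11 and 3.67 CPM in WT at 0 Gy, 14.1 and 15.1 in WT at 30 Gy, 1.19 and 0.976 in KO at 0 Gy, and 2.83 and 4.28 in KO at 30 Gy. It rose in each line (2.11 ± 0.24 and 1.73 ± 0.27) and was lower in KO at each dose (-1.66 ± 0.28 and -2.04 ± 0.24). In WT the TNF receptor Tnfrsf1a (-0.46 ± 0.11) and the lymphotoxin receptor Ltbr (-0.51 ± 0.16) fell. Tlr2 and Tlr3 were higher in KO at 30 Gy than in WT at 30 Gy, by 2.27 ± 0.17 and 2.91 ± 0.14. Without irradiation Tnfrsf13c (2.22 ± 0.32) and Tnfrsf11a (1.58 ± 0.34) were higher in KO.

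Of 26 adaptors and kinases, 7 rose and 2 fell in WT and 12 rose and 2 fell in KO. Over all tested genes 20.4% rose and 18.4% fell in WT, and 21.1% and 18.6% in KO. Ikbkg, the regulatory subunit of the IkB kinase, rose by 0.48 ± 0.07 in WT and 0.59 ± 0.07 in KO. The catalytic subunits were not called after irradiation in either line, with Chuk at 47.3 to 61.0 CPM and Ikbkb at 66.9 to 81.2 over the libraries, and Ikbkb was higher in KO than in WT after irradiation (0.24 ± 0.07). Map3k14, the kinase of the slower branch, stood at 37.0 and 45.8 CPM in WT at 0 Gy, 55.7 and 66.6 in WT at 30 Gy, 26.7 and 26.3 in KO at 0 Gy, and 31.9 and 38.7 in KO at 30 Gy. It rose in WT by 0.57 ± 0.14, while its change in KO of 0.42 ± 0.15 did not pass (edgeR adjusted p = 0.057), and it was lower in KO by -0.64 ± 0.15 without and -0.79 ± 0.14 after irradiation. Traf3, which targets that kinase for degradation, was lower in KO as well, by -0.38 ± 0.10 and -0.55 ± 0.10. Traf2 was lower in KO at 0 Gy (-0.47 ± 0.09) and rose there with irradiation (0.45 ± 0.09). Birc2, a homologue of Birc3, rose by 0.92 ± 0.11 in WT and 0.70 ± 0.11 in KO, and Irak2 by 0.85 ± 0.14 and 0.87 ± 0.14, while Tab1 fell in each line (-0.60 ± 0.11 and -0.57 ± 0.11). In KO Myd88 (1.40 ± 0.14), Rnf31 (1.30 ± 0.10) and Traf5 (1.17 ± 0.24) rose most. Myd88 and Rnf31 were also higher than in WT at 30 Gy (1.30 ± 0.14 and 0.75 ± 0.10). Without irradiation Irak4 was higher in KO (0.65 ± 0.11) and Traf5 lower (-1.16 ± 0.24). Rel, the other subunit gene tested beside Rela, rose in KO (0.37 ± 0.12) and was lower in KO without irradiation (-0.49 ± 0.12).

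Of 13 further inhibitors, 2 rose and 1 fell in WT and 3 rose and 1 fell in KO. Beside the 20.4% higher and 18.4% lower of all genes in WT, and 21.1% and 18.6% in KO, these counts are not a result about inhibitors. Nfkbie, which encodes IkB epsilon, stood at 16.99 and 15.6 CPM in WT at 0 Gy, 38.7 and 43.3 in WT at 30 Gy, 8.98 and 11.8 in KO at 0 Gy, and 21.2 and 24.4 in KO at 30 Gy. It rose by 1.33 ± 0.15 in WT and 1.12 ± 0.15 in KO, and was lower in KO by -0.63 ± 0.15 and -0.85 ± 0.14. Tnip1, a partner of the Tnfaip3 product, rose by 0.80 ± 0.11 and 0.38 ± 0.11 and was lower in KO at 30 Gy (-0.41 ± 0.11). The deubiquitinase gene Cyld fell by 0.35 ± 0.08 in WT and 0.54 ± 0.08 in KO and was lower in KO at 30 Gy than in WT at 30 Gy (-0.37 ± 0.08). Other inhibitors were higher in KO. Nfkbib, which encodes IkB beta, was higher without irradiation (0.65 ± 0.12), Tax1bp1, an adaptor of the Tnfaip3 product, at each dose (0.85 ± 0.08 and 0.80 ± 0.08), and N4bp1 after irradiation (0.76 ± 0.07).

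Among 20 other target genes, the adhesion molecule gene Vcam1 was lower in KO at each dose. It stood at 78.9 and 87.0 CPM in WT at 0 Gy, 106 and 103 in WT at 30 Gy, 24.6 and 23.1 in KO at 0 Gy, and 46.5 and 39.7 in KO at 30 Gy. Vcam1 rose by 0.33 ± 0.10 in WT and 0.85 ± 0.10 in KO, and differed between the lines by -1.80 ± 0.10 and -1.27 ± 0.10. Selp, the P-selectin gene, was lower in KO too (-5.02 ± 0.29 and -2.84 ± 0.24). So was the matrix protease gene Mmp9, with 18 and 24 reads in WT against 1 and 3 in KO at 0 Gy, and 138 and 200 against 11 and 28 at 30 Gy (-3.18 ± 0.38). The protease gene Plau was higher in KO without irradiation (3.02 ± 0.23). Chemokines divided. Cxcl1, a neutrophil attractant, rose by 2.24 ± 0.29 and 2.17 ± 0.31, and Ccl2, a monocyte attractant, by 1.64 ± 0.17 and 0.87 ± 0.16. Both were lower in KO at 30 Gy than in WT at 30 Gy (-0.99 ± 0.27 and -0.53 ± 0.16). Cxcl10, a T cell attractant that interferons also induce, stood at 0.913 and 0.734 CPM in WT at 0 Gy, 41.0 and 22.4 in WT at 30 Gy, 2.29 and 1.64 in KO at 0 Gy, and 329 and 291 in KO at 30 Gy. It was higher in KO at 30 Gy by 3.30 ± 0.25. Il6 had at most 0.400 CPM outside KO at 30 Gy, where it was at 2.17 and 2.34, and Cxcl2 at most 0.457 CPM in any library. At 30 Gy Il6 had 4 and 7 reads in WT and 33 and 41 in KO, a log2 difference of 2.67 ± 0.71. Nos2 rose from 0 reads in WT at 0 Gy to 1.08 and 0.514 CPM, and from 3 and 1 reads in KO at 0 Gy to 3.22 and 3.995 CPM. Ccl5 rose by 3.38 ± 0.43 in WT and 3.53 ± 0.40 in KO. Sod2, the mitochondrial superoxide dismutase, fell in each line (-0.40 ± 0.09 and -0.61 ± 0.09).

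On the route from DNA damage to NF-kB, 2 of 7 genes rose and 2 fell in WT and 2 rose and 1 fell in KO. These are few genes, and about 1 in 5 of all tested genes passed in each direction in either line (18.4 to 21.1%), so the counts are not a result about this route. The damage kinase gene Atm rose by 0.69 ± 0.09 in WT and 1.01 ± 0.09 in KO and was higher in KO at 30 Gy (0.58 ± 0.09). Trp53 rose by 0.46 ± 0.08 and 0.30 ± 0.08 and was lower in KO at each dose (-0.39 ± 0.08 and -0.55 ± 0.08). Pidd1 fell in WT (-0.80 ± 0.26), Parp1 in each line (-0.28 ± 0.08 and -0.38 ± 0.08), and Pias4 was lower in KO at each dose (-0.33 ± 0.09 and -0.44 ± 0.09). The rule for names picked 97 changes in these lists that passed edgeR's adjusted threshold over all genes. Called changes printed outside these 97, such as that of Parp1 in WT, have no alternatives given here. Of the 97, 63 were called in every alternative. Not called in every alternative were, after irradiation in WT, Tnfsf13b, Il18, Tnfrsf1a, Ltbr, Map3k14, Cyld, Vcam1, Sod2 and Pidd1, and in KO Traf5, Rel, Tnip1 and Trp53. The same held between non-irradiated lines for Tnfrsf11a, Traf2, Traf3, Traf5, Map3k14, Rel, Nfkbib, Nfkbie, Pias4 and Trp53, and between irradiated lines for Ikbkb, Tnip1, Cyld, Il6, Cxcl1, Ccl2 and Pias4.

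Markers of other cell types were read beside these genes because leukocytes and endothelium express several of them. The 12 macrophage and leukocyte markers summed to 3.84 to 3.87 CPM in WT at 0 Gy, 37.5 to 39.7 in WT at 30 Gy, 7.24 to 8.17 in KO at 0 Gy and 56.2 to 65.1 in KO at 30 Gy. Nearly all of this was Cd68, a lysosomal protein gene. In any library C1qa had at most 1 read, Adgre1 and Tyrobp at most 2, Csf1r at most 10, Lyz2 at most 14, Ctss at most 17 and Ptprc at most 20. Of the 4 markers tested, Cd68, Ptprc, Lyz2 and Ctss, 3 were called higher after irradiation in WT, all but Ctss, and 4 in KO. Over all tested genes 20.4% and 21.1% were called higher. The sum was higher after irradiation in each line and higher in KO at each dose. Ptprc, the pan-leukocyte marker gene CD45, rose in each line (4.17 ± 0.90 and 5.67 ± 1.51) but was at 1.44 and 1.14 CPM in WT at 30 Gy against 0.394 and 0.399 in KO at 30 Gy, a difference that did not pass (edgeR adjusted p = 0.131). Endothelial markers, all 7 in the table, summed to 3.003 to 3.167, 13.8 to 18.8, 8.07 to 9.07 and 13.5 to 15.6 CPM in the same order, with Cldn5 at no more than 1 read, Emcn at no more than 2 and Cdh5 at no more than 17. Vwf, Tek and Pecam1 were not near 0, with up to 211, 137 and 102 reads. Vwf, which encodes von Willebrand factor, rose in each line (3.10 ± 0.30 and 3.20 ± 0.38 on the log2 scale) and was lower in KO at each dose (-2.18 ± 0.40 and -2.09 ± 0.28), so it moved in the directions of Icam1. Tek was higher in KO at each dose (5.23 ± 0.72 and 3.50 ± 0.60). The 8 T, B and NK cell markers in the table reached 2.36 CPM at most, with Cd3e and Cd8a at no more than 2 reads. Cd79a, a B cell receptor gene with at most 31 reads, rose in KO (2.73 ± 0.91, edgeR adjusted p = 0.0456) and was higher there than in WT at 30 Gy (3.43 ± 0.96). The 7 fibroblast markers, mostly Col1a2, summed to 844 to 915, 1060 to 1167, 1082 to 1136 and 1577 to 1743 CPM. The part of the cells behind these reads in the values of the 10 genes was not tested.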

How the data were processed

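Messenger RNA of 8 libraries was sequenced, 2 in each of 4 groups taken from the library titles. The table deposited by the authors holds raw counts, whole numbers of reads for each Ensembl gene. The submitters' processing notes name HISAT2, HISAT, HTSeq and DESeq2 without versions, and mm10 as the genome. Annotation release, strand setting, multi-mapping reads and filters are not stated there. Reads in overlapping genes may therefore be missing or counted for the wrong strand's gene. Beside Psd, genes on the other strand share exonic bases with 4 members. They are AC114539.1 with Nfkb2 (531 bases), Gm47079 with Icam1 (511), Gm40578 with Tnfaip2 (314) and Gm16175 with Bcl3 (161). Of these only Gm16175 had a row, with at most 2 reads in a library.

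The counts were fitted with edgeR 4.0.16 under R 4.3.3, after filterByExpr with a minimum count of 10 and a minimum total of 15. TMM factors ran from 0.975 to 1.02. All 8 libraries entered 1 fit with a coefficient per group, 4 residual degrees of freedom and a common dispersion of 0.0199. Changes were tested with the two-sided quasi-likelihood F test and adjusted over all 14923 genes (Benjamini-Hochberg, 0.05). The SE was taken from the F statistic, and intervals are 95% intervals of that fit. Levels per kilobase used the union of exons of GENCODE M21, which also gave the coordinates (1-based). Totals between 10971004 and 19887180 put 3 reads, the limit that a count of 0 allows, at 0.151 to 0.273 CPM, which covers counting error only.

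Same-numbered libraries deviated together from their group means (correlations between 0.564 and 0.611 over the 6 pairs of groups). The replicate number was therefore entered as a block in 1 alternative. The main fit held no block, so its SE, intervals and p-values ignore this pairing. The source of the pairing is not in the labels. Libraries of a group differed by more than sampling noise (chi-square per gene between 12.9 and 23.2).

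The members and lists were chosen with earlier results of these data known. All 10 members were named. Of the other pathway genes, those called that were among the 3 largest changes of their list were named. A fixed set of anchor genes was named by level or by the changes called, and their other changes, which did not pass, are mostly not printed. Alternatives were RLE scaling, total counts, no filter, DESeq2 1.42.0, the replicate block, only the groups compared, and each library left out. The procedure was also run on simulated data without the shared deviations of same-numbered libraries, so that run cannot speak to the pairing. Its outcome is not given here. Pathway genes without a row, and protein sequences, were not analysed here.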

Additional observations from a re-analysis of the deposited data

Results flagged for a closer look

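The irradiation effect on Traf1 had opposite signs in the lines, -0.16 in WT and 0.26 in KO, without overlap of the libraries, a difference of 0.43 ± 0.10 on the log2 scale (edgeR adjusted p = 0.11, with the replicate block 0.000821, range over 13 alternatives 0.000821 to 0.388). Tnfaip2 also had opposite signs, -0.08 and 0.06, but neither change nor their difference of 0.14 ± 0.10 passed (edgeR adjusted p = 0.674).

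Of the 82 other pathway genes tested, the difference between the irradiation effects, KO minus WT, passed the test over all genes for 7. It was higher for 6 (7.32%, beside 1.37% of all tested genes) and lower for 1 (1.22%, beside 0.57%). Tlr3 rose by 1.25 in WT and 3.73 in KO, a difference of 2.48 ± 0.20 (edgeR adjusted p = 0.00169). Irf1, an interferon-induced transcription factor, had effects of 1.28 and 2.43 (difference 1.15 ± 0.14, edgeR adjusted p = 0.00661). The inhibitor N4bp1 had effects of 0.10 and 1.09 (difference 0.99 ± 0.10, edgeR adjusted p = 0.00252). Rnf31, of the linear ubiquitin ligase, had effects of 0.24 and 1.30 (difference 1.07 ± 0.15, edgeR adjusted p = 0.0125). Csf1, a macrophage growth factor, had effects of 0.05 and 0.66 (difference 0.61 ± 0.12, edgeR adjusted p = 0.0453), and was named after its values were seen. Selp had effects of -0.50 and 1.68 (difference 2.18 ± 0.38, edgeR adjusted p = 0.0335), from 0.641 and 0.462 CPM in non-irradiated KO. Plau had effects of 1.36 and -0.25, the 1 negative difference (-1.61 ± 0.31, edgeR adjusted p = 0.0474). The calls of Rnf31, Csf1, Selp and Plau were lost in at least 1 alternative, with highest adjusted p of 0.064, 0.186, 0.183 and 0.19, and those of Tlr3, N4bp1 and Irf1 were kept in all 13.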

How the results depend on the processing

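Of 27 member calls, 16 held in every alternative and 11 were lost in at least 1. None of the 27 changed sign. The count of members lower after irradiation in WT, 1 (Nfkb1), was 0 with total counts, no filter, DESeq2 or only the groups compared and 2 with the replicate block. It ranged from 0 to 1 over the fits leaving out 1 library, with 0 without either WT library of either dose or without non-irradiated KO replicate 2. The block gave 1 member lower after irradiation in KO and 1 with a higher irradiation effect in KO than WT, each 0 otherwise. Members lower in KO without irradiation were 3 with only the groups compared, and 4 to 6 over the fits leaving out 1 library. After irradiation they were 4 with DESeq2 and 4 to 6 over those fits. In each fit leaving out 1 library, fewer of all genes were also called lower between the lines than in the main fit. Counts of all genes with DESeq2 or with only the groups compared are not given here. Apart from the calls given with a blocked value in the report, the block ended or added none among the members. Over all genes it raised the calls after irradiation from 3047 higher and 2751 lower to 4569 and 4465 in WT, and those between non-irradiated lines from 1555 and 1416 to 3197 and 3504, so the background shares are larger under it as well.

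Values near 0 changed sign. The non-irradiated line difference of Birc3 ranged from -0.0235 to 0.184 over the fits leaving out 1 library (negative without non-irradiated KO replicate 1), and the irradiated one of Relb from -0.166 to 0.0408 (positive without irradiated WT replicate 2). Differences between irradiation effects ranged, leaving out 1 library, from -0.0849 to 0.111 for Nfkbia, from -0.36 to 0.13 for Bcl3 and from -0.00945 to 0.239 for Nfkb2. For Nfkbia the difference was -0.0044 with RLE scaling, -0.0234 with total counts, -0.0119 without a filter and -0.00387 with DESeq2. The cause of these shifts was not tested. No scaling moved the median of all genes by more than 0.1 on the log2 scale. A fit that leaves out 1 library gives that group 1 sample, assumed to vary like the others. Among the members, Icam1, Bcl3 and Tnfaip3 had the fewest reads.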
